A study of Homo sapiens with 6 samples.

Results

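The chromosome 19 zinc finger genes are the genes of the deposited table that are annotated as protein-coding, lie on chromosome 19 and have a symbol made of ZNF and a number. The rule found 249 genes among the 58735 rows of the table, and it used no measured value. Their level was read in MDA-MB-231 cells, a human breast cancer line of basal-like, mesenchymal type. RNA from these cells was compared between 3 libraries without irradiation (0 Gy) and 3 libraries collected 24 h after 10 Gy of gamma rays from a caesium source. All 6 libraries are labelled SCR with genotype WT, and the study uses shSCR for cells that carry a non-targeting shRNA. The comparison therefore rests on a single cell line, a single dose and a single time after irradiation. The labels do not say whether the libraries came from separate cultures, so the p-values measure the spread between these libraries, which may be technical.

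The values are FPKM, fragments scaled by the length of the gene and by the depth of the library, and can be compared between genes because they are per length. Whole reads could be recovered from the values, and the libraries held between 15643641 and 28861781 reads on genes. The line's markers VIM, CD44, CAV1 and EGFR had between 29.8 and 301 FPKM at 0 Gy. The hormone receptor gene ESR1 had 0.00872 FPKM and PGR was listed at 0, while EPCAM had 1.44 FPKM and ERBB2 had 7.08 FPKM. In bulk RNA, fewer cells that express a gene and less RNA per cell cannot be told apart.

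Most ZNF proteins of this chromosome bind DNA through a row of C2H2 zinc fingers, small loops that each hold a zinc ion between a pair of cysteines and a pair of histidines. Many also carry a KRAB domain at the other end of the protein. The KRAB domain recruits the co-repressor TRIM28 (KAP1), which brings the histone methyltransferase SETDB1, HP1 proteins and the NuRD complex, and so places H3K9 trimethylation on chromatin. Genes of this family arose by repeated tandem duplication and lie in clusters, and many of their products bind and silence retrotransposons.

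Of the 249 members, 215 encode a protein with a match to a KRAB profile, 33 encode none and 1, the readthrough gene ZNF625-ZNF20, has no protein in the annotation read here. The number of C2H2 fingers found in the longest annotated protein ran from 0 to 36, in ZNF208, with a median of 12. Members with a KRAB match had a median of 13 fingers and those without had 9. The deposited table itself assigns 239 of the 249 to the zf-C2H2 family. By start position the members fell into 9 clusters of 5 or more, in which neighbouring starts are at most 1 Mb apart, and 11 members lay outside them. From the short-arm end the clusters are called A to I here. They held 5, 16, 26, 37, 5, 26, 24, 40 and 59 members. Cluster D, from 19.7 to 24.1 Mb, lies on the short arm next to the centromere and holds the ZNF91 family. Cluster H runs from 51.6 to 53.6 Mb, and cluster I from 55.5 to 58.5 Mb near the end of the long arm. All coordinates are those of GRCh38, and the start and end of all 249 members equal those of GENCODE 29.

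Promoter sequences are shown for 6 members on which the results below turn. Of the 249 members, 217 had an entry among the RefSeq promoters of GRCh38.p14, and the 250 bases before the annotated start were read. Cluster D is represented by ZNF714, ZNF431 and ZNF91, which rose after irradiation, and by ZNF486, its most abundant member, which was not called. ZNF841 had the largest rise of the called members, and ZNF787 was the most abundant of those called lower in cluster I. The windows are chr19:21081953-21082202 for ZNF714, chr19:21141790-21142039 for ZNF431 and chr19:20166964-20167213 for ZNF486, all on the plus strand. Those on the minus strand are chr19:23395472-23395721 for ZNF91, chr19:52095766-52096015 for ZNF841 and chr19:56121296-56121545 for ZNF787. Each sequence reads 5′ to 3′ on the strand of its gene. Capitals mark CCAAT and the ETS motif CCGGAAG, on either strand.
ZNF714: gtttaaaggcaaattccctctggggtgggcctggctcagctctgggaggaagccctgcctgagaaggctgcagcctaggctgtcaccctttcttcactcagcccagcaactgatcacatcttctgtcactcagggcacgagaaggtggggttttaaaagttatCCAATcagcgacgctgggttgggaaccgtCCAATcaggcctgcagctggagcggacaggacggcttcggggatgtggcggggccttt
ZNF431: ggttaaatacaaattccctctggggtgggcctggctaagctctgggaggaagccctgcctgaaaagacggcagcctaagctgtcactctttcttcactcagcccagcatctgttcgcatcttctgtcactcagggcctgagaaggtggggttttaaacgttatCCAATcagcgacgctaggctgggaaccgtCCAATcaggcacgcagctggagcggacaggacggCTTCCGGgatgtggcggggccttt
ZNF91: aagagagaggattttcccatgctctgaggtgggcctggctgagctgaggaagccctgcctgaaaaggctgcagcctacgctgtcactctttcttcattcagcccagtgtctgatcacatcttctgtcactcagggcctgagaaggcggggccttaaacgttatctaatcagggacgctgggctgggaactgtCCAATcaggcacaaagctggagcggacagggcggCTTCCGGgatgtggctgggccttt
ZNF486: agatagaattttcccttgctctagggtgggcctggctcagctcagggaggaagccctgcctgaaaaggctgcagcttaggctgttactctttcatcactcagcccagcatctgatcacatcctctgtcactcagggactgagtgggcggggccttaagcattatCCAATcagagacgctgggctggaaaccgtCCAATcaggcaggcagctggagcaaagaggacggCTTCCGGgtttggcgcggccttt
ZNF841: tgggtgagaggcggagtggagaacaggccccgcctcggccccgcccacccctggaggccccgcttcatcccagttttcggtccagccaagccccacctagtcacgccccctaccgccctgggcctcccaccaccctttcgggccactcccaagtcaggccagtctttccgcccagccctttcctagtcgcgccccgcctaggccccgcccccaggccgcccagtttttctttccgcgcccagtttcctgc
ZNF787: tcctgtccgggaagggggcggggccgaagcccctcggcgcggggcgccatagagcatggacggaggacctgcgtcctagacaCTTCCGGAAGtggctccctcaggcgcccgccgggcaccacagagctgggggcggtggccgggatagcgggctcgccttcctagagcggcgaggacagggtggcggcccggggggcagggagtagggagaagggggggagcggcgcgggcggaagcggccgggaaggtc

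The 4 promoters of cluster D are alike over their whole length. In global alignments, ZNF714 and ZNF431 were identical at 92% of the 250 bases, ZNF431 and ZNF91 at 86.8%, and ZNF714 and ZNF91 at 85.2%. ZNF486 was identical to the other 3 at 84.4 to 85.6%. ZNF841 was identical to ZNF431 at 57.6% and ZNF787 at 59.6%, close to the median of 58.8% over the 20194 pairs of members from different clusters. Over all 406 pairs of promoters within cluster D the median was 79.2%, and within each of the other 8 clusters it was between 59.2% and 63.6%.

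CCAAT, the core of the NF-Y binding motif, stood in 29 of 29 promoters of cluster D, in 51.6% of the 217 member promoters and in 32.0% of all 35116 RefSeq promoters of the same length. It was found in 55.7% of promoters of members with a KRAB match and in 25.8% of those without. The ETS motif CCGGAAG stood in 31.8% of member promoters and 8.52% of all promoters. The SP1 motif GGGCGG stood in 65.4% against 42.6%. In the 213 promoters of ZNF genes on other chromosomes the shares were 42.3% for CCAAT, 27.7% for ETS and 57.7% for SP1. Both strands were searched for each motif, and a match overlapping another was kept. The NRF1 motif GCATGCGC stood in 3.69% of member promoters against 2.63% of all, the YY1 motif GCCATNTTG in 2.30% against 1.40%, and the cAMP response element TGACGTCA in 2.30% against 1.65%. For the E2F motif TTTCGCG the shares were 2.30% and 1.10%. For the cell cycle homology region TTTGAA they were 9.68% and 13.3%. Among the 20 promoters of members that rose, 10 held CCAAT and 6 held the ETS motif, shares of 50% and 30% beside 51.6% and 31.8% among all member promoters. A match of these letters is a description of the sequence and not a binding site.

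Without irradiation most members were transcribed at a low level. The median over the 249 was 1.33 FPKM at 0 Gy, and 153 of them (61.4%) had a mean of at least 1 FPKM. Over all 19951 protein-coding genes the median was also 1.33 FPKM, and 52.3% reached 1 FPKM. By these measures the members were not lower than protein-coding genes in general. Only 3 members reached 10 FPKM, 17 lay between 5 and 10 FPKM and 133 between 1 and 5 FPKM. Below that, 60 lay between 0.1 and 1 FPKM and 12 were above 0 but under 0.1 FPKM. In all 3 libraries at 0 Gy, 24 members were listed at 0, and 15 of these were listed at 0 in all 6 libraries. The other 9 had at most 2 recovered reads in any library at 10 Gy.

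The most abundant members were those without a KRAB domain. ZNF146, a protein made of fingers alone (chromosome 19, 36214602 to 36238774), had 33.5 ± 0.726 FPKM (SD, n = 3) at 0 Gy and made up 6.48% of the summed FPKM of all members. ZNF787 followed with 19.1 ± 2.33 FPKM and ZNF428 with 14.1 ± 2.74 FPKM. The 3 values of ZNF787 and the 3 of ZNF428 overlapped, so their order is not larger than the spread between libraries, while every value of ZNF146 was above both. ZNF581 (9.86 ± 0.626 FPKM), ZNF865 (9.41 ± 0.794 FPKM) and ZNF524 (9.39 ± 1.22 FPKM) came next and did not differ beyond their spread. The first member with a KRAB match in this order was ZNF317 in cluster B, with 8.87 ± 0.660 FPKM. The median level was 4.75 FPKM for members without a KRAB match and 1.23 FPKM for those with one. The median deposited gene length was 3671 bases for the former and 5087 bases for the latter.

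A run of 9 consecutive members without a KRAB match opens cluster I, from ZNF628 to ZNF444 (chromosome 19, 55476332 to 56160893), and includes ZNF579, ZNF524, ZNF865, ZNF784, ZNF580, ZNF581 and ZNF787. Their levels at 0 Gy were between 4.56 and 19.1 FPKM, with a median of 8.56 FPKM. At the other extreme, 9 consecutive members of cluster D, from ZNF257 to ZNF730, were listed at 0 in all libraries at 0 Gy. These are ZNF257, ZNF676, ZNF729, ZNF98, ZNF492, ZNF99, ZNF723, ZNF728 and ZNF730, and 8 of them encode a KRAB match. They were listed at 0 at 10 Gy as well, except for a single read of 1 member. A count of 3 reads in a library at 0 Gy would stand for 0.0176 to 0.106 FPKM in these genes, depending on length and depth. ZNF98 and ZNF492 share 23.7% and 18.4% of their 100-base stretches with other genes, where counting can lose reads, and the other 7 share at most 2.51%. ZNF208, the member just before this run, had 1 read in 1 library at 0 Gy. ZNF724, just after it, had 1.21 ± 0.133 FPKM, with 41.9% of its stretches shared.

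**Figure D1:**
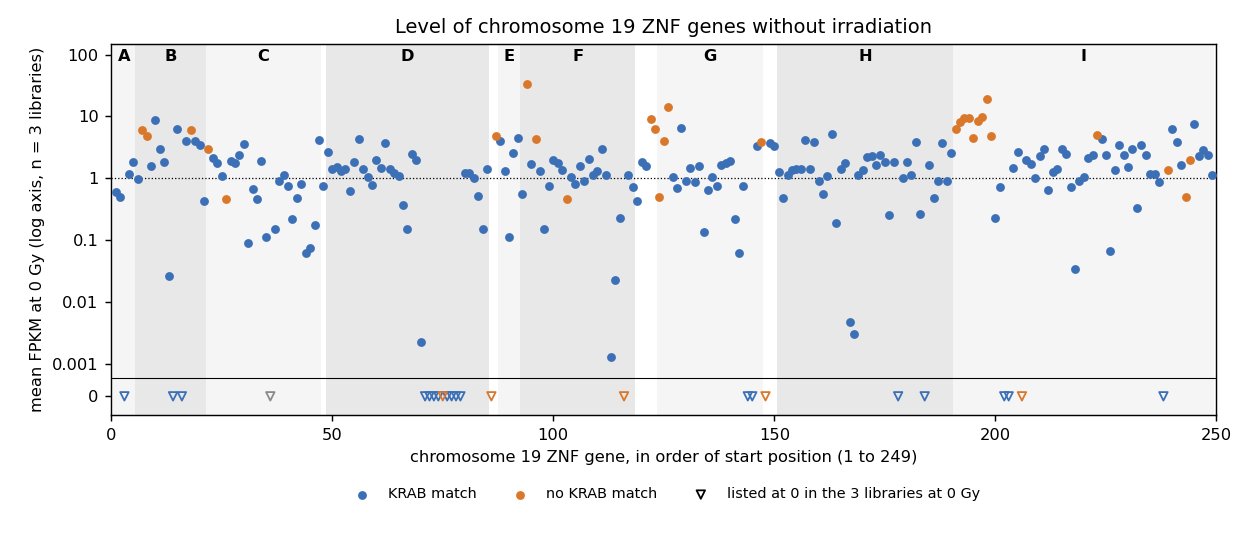
Mean FPKM at 0 Gy (log axis, n = 3 libraries) of the 249 members in order of start position, with clusters A to I shaded, members with a KRAB match in blue and without in orange, and open triangles for the 24 members listed at 0. The dotted line is 1 FPKM, reached by 153 members, and the row of triangles in cluster D is the run from ZNF257 to ZNF730.

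After 10 Gy, tested members with a KRAB match shifted upward by a small amount, and the few members called lower had none. The test was limma on log2(FPKM + 1) over the 12128 genes that averaged 1 FPKM or more, with Benjamini-Hochberg adjustment over those genes, and a gene was called at an adjusted p under 0.05. Of the 249 members, 161 passed this level filter and 88 did not. Members among those 88 moved in both directions. ZNF333, which has a KRAB match, had a ratio of means of 0.709, and ZNF493 had 1.74. Neither overlapped between doses. Of the 161, 25 were called higher (15.5%) and 4 lower (2.48%). Among all genes tested, 11.9% were called higher and 23.7% lower. The share of members called higher is thus near that of all genes, and the share called lower is below it. The median log2 change was 0.07 over the members and -0.04 over all genes. A positive change was seen in 112 of 161 members (69.6%) and in 41.4% of all genes tested.

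The changes were small. The ratio of mean FPKM was between 1.13 and 1.58 for the 25 members called higher, with a median of 1.31. With a change of at least 1.3-fold on the log2(FPKM + 1) scale required as well, 1 member was higher (ZNF841) and 1 lower (ZNF524), where 2.82% of all genes tested were higher and 2.95% lower. That scale understates the change of low genes. With a pseudocount and a level filter of 0.1 in place of 1, 22 of 213 members were higher and 3 lower, against 7.23% and 11.9% of all genes, and the median change was 0.14. This setting was chosen after seeing the data. The libraries of the 2 doses did not overlap for 56 of the 161 tested members (34.8%), of which 46 were higher and 10 lower at 10 Gy, and for 51.9% of all genes. Those 56 include all 29 called members. The counts of calls rest on all libraries. With any 1 of the 6 left out, between 9 and 16 members were called higher and between 2 and 6 lower.

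By domain, 25 of the 137 tested members with a KRAB match were called higher (18.2%, against 11.9% of all genes) and 0 lower. Their median log2 change was 0.10 and 103 were positive. At an unadjusted p under 0.05 limma gave 38 of these members higher and 0 lower. The share of all genes at that cut was not computed, so this count has no background beside it. Of the 24 tested members without a KRAB match, 0 were called higher and 4 lower (ZNF524, ZNF787, ZNF580 and ZNF146). Their median was -0.10 and 9 were positive. Their share called lower, 16.7%, was below the 23.7% of all genes tested. At an unadjusted p under 0.05 limma gave 0 of them higher and 7 lower, again without a background. The split rests in part on ZNF714, whose KRAB match has an E-value of 0.000999 at a limit of 0.001, while that of every other matching member is at most 3.88e-06. With a limit of 0.0001, added after seeing the data, 24 of 136 members with a match and 1 of 25 without, ZNF714, were higher. There were exceptions under other settings as well. Without the eBayes trend, and with protein-coding genes alone, 1 member with a KRAB match was called lower, and without replicate 1 of 0 Gy 2 members lacking a match were called higher. With the replicate number as a block 14 members with a KRAB match were higher, and with 1 library left out the number was 9 to 15. Without replicate 2 of 10 Gy 2 members lacking a match were lower. This division was made with results of these data known and is given without a test. Rescaling each library to the same total (TPM) moved the median log2 change of all genes from -0.04 to 0.07, a shift of 0.11. Relative to the median of all genes the members stood 0.11 higher as deposited and 0.09 higher in TPM. In TPM the median was 0.17 for members with a KRAB match and 0.00 for those without. Of the 161 tested members, 51 were called higher in TPM (47 with a KRAB match and 4 without) and 1 lower. Of the 12128 genes tested, 3127 were higher in TPM and 1071 lower. The share of member calls that were higher went from 86.2% as deposited to 98.1% in TPM. Among all genes that share went from 33.4% to 74.5%.

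The summed level differed in direction between members with and without a KRAB match. Over the 215 members with a KRAB match the sum was 322.7, 328.7 and 330.7 FPKM at 0 Gy and 360.0, 362.9 and 364.3 FPKM at 10 Gy, a ratio of means of 1.11. All libraries at 10 Gy were above all libraries at 0 Gy, in FPKM and in TPM alike. Over the 33 members without a KRAB match the sum was 199.4, 181.2 and 189.7 FPKM at 0 Gy and 172.0, 172.0 and 173.1 FPKM at 10 Gy, a ratio of 0.907. In FPKM these groups did not overlap, whereas in TPM they did, at 669 to 716 against 679 to 697, with a ratio of 0.992. The separation of the doses was thus kept in both units for members with a KRAB match, and in FPKM alone for those without.

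**Figure D2:**
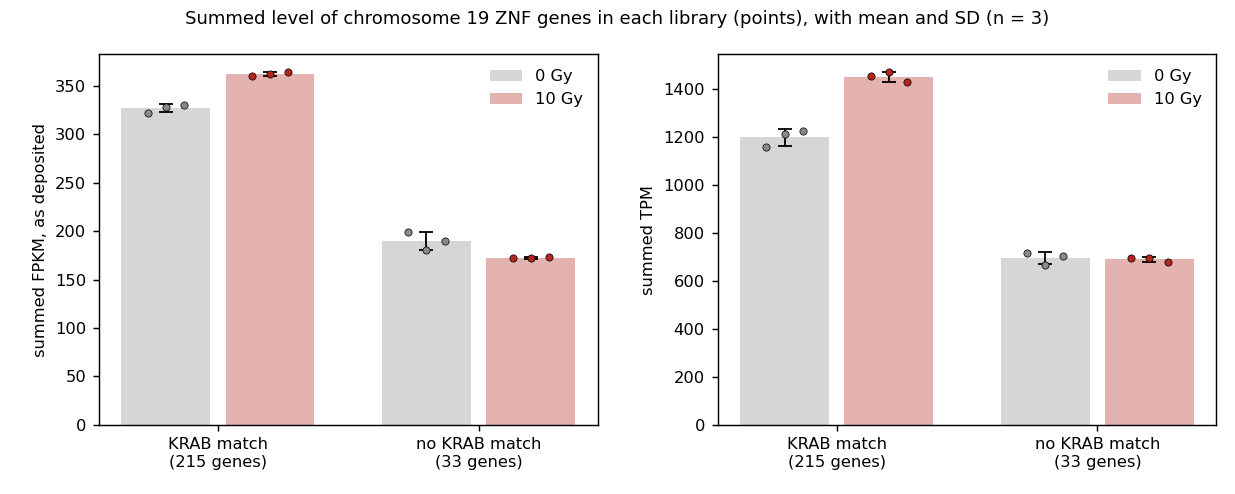
Summed level of members with and without a KRAB match in each library (points), with bars for the mean and error bars for the SD of 3 libraries, as FPKM (left) and rescaled to TPM (right). With a KRAB match the 10 Gy libraries lie above the 0 Gy libraries in both panels, and without one they lie below them in FPKM and overlap them in TPM.

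**Figure D3:**
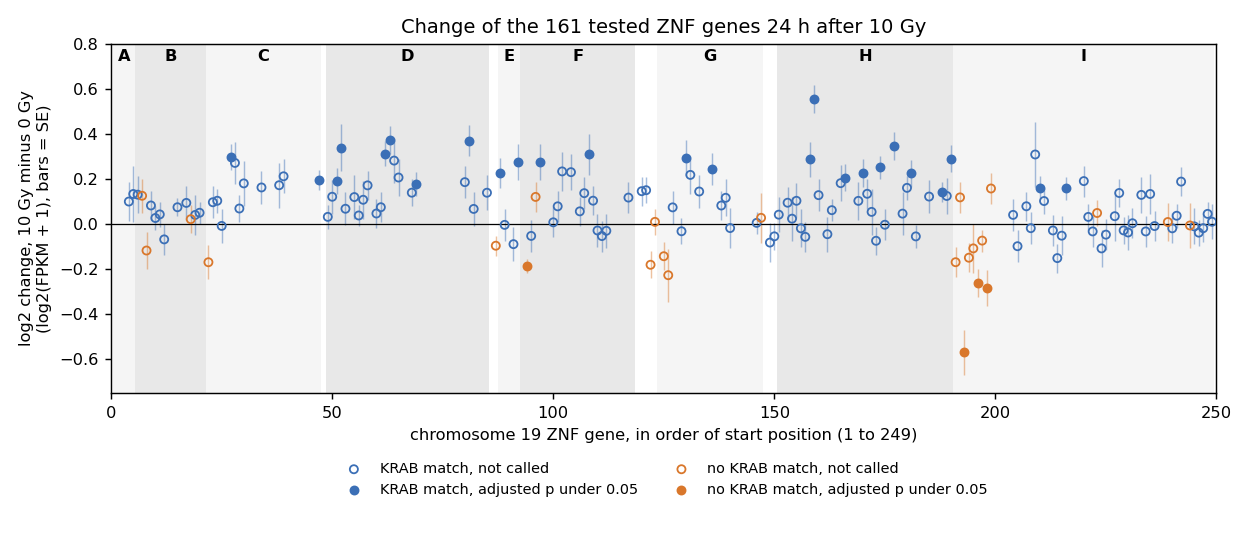
Log2 change on the log2(FPKM + 1) scale, 10 Gy minus 0 Gy, of the 161 tested members in order of start position, with bars for the SE. Filled symbols are the 25 members called higher, all with a KRAB match (blue), and the 4 called lower, all without (orange), and 3 of the latter stand together at the start of cluster I.

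ZNF841 had the largest rise of the called members. This KRAB member with 20 fingers lies in cluster H (chromosome 19, 52064466 to 52095765, minus strand). Its values were 3.83, 4.26 and 3.60 FPKM at 0 Gy and 6.23, 6.45 and 5.84 FPKM at 10 Gy. The lowest value at 10 Gy was well above the highest at 0 Gy. The log2 change was 0.55 ± 0.06 (SE, adjusted p = 0.00123), a ratio of means of 1.58. Its neighbour ZNF432, whose annotated start lies next to that of ZNF841 and whose exons overlap it on the same strand, had 1.52, 1.57 and 1.23 FPKM at 0 Gy and 1.88, 2.13 and 1.90 FPKM at 10 Gy. ZNF432 was also called higher, by 0.29 ± 0.08 (adjusted p = 0.0264). Reads in the shared exons cannot be assigned to either gene with certainty.

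In cluster D the rise was seen for several neighbours of the ZNF91 family. ZNF431 (chromosome 19, 21142024 to 21196053) had 1.3, 1.44 and 1.43 FPKM at 0 Gy and 2.02, 2.25 and 2.03 FPKM at 10 Gy. ZNF91, which represses SVA retrotransposons and has 31 fingers, had 1.12, 1.27 and 1.28 FPKM at 0 Gy and 1.84, 2.03 and 1.75 FPKM at 10 Gy. The doses did not overlap for either gene. The log2 change was 0.37 ± 0.06 for ZNF431 (adjusted p = 0.00471) and 0.37 ± 0.07 for ZNF91 (adjusted p = 0.00689), with ratios of means of 1.51 and 1.53. ZNF91 (chromosome 19, 23304991 to 23395560) shares none of its 100-base stretches with other genes and overlaps no other exon. ZNF714, next to ZNF431 on the same strand, had 3.45, 3.77 and 4.04 FPKM at 0 Gy and 4.80, 5.07 and 4.82 FPKM at 10 Gy. Again all irradiated libraries were above all others, and the change was 0.31 ± 0.06 (adjusted p = 0.00623).

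ZNF253, at the start of the same cluster, varied more. It had 1.23, 1.08 and 1.57 FPKM at 0 Gy and 1.6, 2.01 and 2.08 FPKM at 10 Gy, on 60 to 173 reads per library. The highest value at 0 Gy nearly reached the lowest at 10 Gy, and the change was 0.34 ± 0.10 (adjusted p = 0.0401). The call was lost without replicate 1 or 2 of 0 Gy and without replicate 2 or 3 of 10 Gy, at adjusted p of 0.092 to 0.122. It was also lost with a filter of 0.1 FPKM (adjusted p = 0.0699) and with no filter (adjusted p = 0.141). ZNF506 and ZNF43 complete the 6 called members of cluster D. ZNF486, whose promoter is shown above with theirs, had 4.37, 4.43 and 4.01 FPKM at 0 Gy and 4.32, 4.51 and 4.39 FPKM at 10 Gy. Its doses overlapped and its change was 0.04 ± 0.05 (adjusted p = 0.568), and the difference between ZNF486 and its neighbours was not tested. ZNF93, a repressor of L1 retrotransposons in the same cluster, had 1.49, 1.49 and 1.24 FPKM at 0 Gy and 1.64, 1.47 and 1.45 FPKM at 10 Gy, which overlap, with a change of 0.07 ± 0.07 (adjusted p = 0.5).

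Other large rises came from clusters C, F and H. ZNF888 in cluster H had 1.69, 1.98 and 1.79 FPKM at 0 Gy and 2.52, 2.49 and 2.73 FPKM at 10 Gy. ZNF440 in cluster C had 1.89, 1.80 and 1.97 FPKM at 0 Gy and 2.70, 2.55 and 2.41 FPKM at 10 Gy. Both were separated by dose with room between the groups, at changes of 0.35 ± 0.06 (adjusted p = 0.00632) and 0.30 ± 0.06 (adjusted p = 0.00817). ZNF585B in cluster F had 1.75, 1.99 and 2.36 FPKM at 0 Gy and 2.86, 2.97 and 2.43 FPKM at 10 Gy, with a change of 0.31 ± 0.09 (adjusted p = 0.0366). Its closest values were 2.36 and 2.43 FPKM, and 15.5% of its 100-base stretches occur in other genes. With the replicate number as a block it was not called (adjusted p = 0.0759), nor without replicate 1 or 2 of either dose (adjusted p of 0.0794 to 0.118). A filter of 0.1 FPKM (adjusted p = 0.0668) or no filter (adjusted p = 0.125) also lost the call.

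All 4 members called lower lack a KRAB match and stood between 8.56 and 33.5 FPKM at 0 Gy. ZNF524 (chromosome 19, 55600022 to 55603138), with 4 fingers, had 10.8, 8.61 and 8.76 FPKM at 0 Gy and 5.53, 6.85 and 5.60 FPKM at 10 Gy. The groups were well apart, and the change was -0.57 ± 0.10 (adjusted p = 0.00557), a ratio of means of 0.639. Its exons overlap those of FIZ1 on the opposite strand. It was the only member still called lower in TPM, at -0.46 (adjusted p = 0.0113). ZNF787 (chromosome 19, 56087366 to 56121280) had 21.2, 16.6 and 19.7 FPKM at 0 Gy and 15.6, 14.9 and 15.9 FPKM at 10 Gy. The lowest control value was close to the highest irradiated one, and the change was -0.28 ± 0.08 (adjusted p = 0.031). It was not called in TPM (adjusted p = 0.125), nor without replicate 1 or 3 of 0 Gy or any replicate of 10 Gy (adjusted p of 0.0619 to 0.1003). A filter of 0.1 FPKM (adjusted p = 0.0609) or no filter (adjusted p = 0.114) also lost the call.

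ZNF580 had 9.21, 8.0 and 8.47 FPKM at 0 Gy and 7.09, 6.47 and 7.34 FPKM at 10 Gy. All irradiated values were below the controls, at -0.26 ± 0.06 (adjusted p = 0.0161). The adjusted p was 0.0698 in TPM, 0.0608 with no filter and 0.0549 without replicate 2 of 10 Gy. ZNF581, which overlaps ZNF580 on the same strand, had 10.3, 10.1 and 9.15 FPKM at 0 Gy and 9.27, 9.12 and 9.55 FPKM at 10 Gy, which overlap (-0.07 ± 0.05, adjusted p = 0.276). ZNF146 had 33.8, 34.1 and 32.7 FPKM at 0 Gy and 29.2, 28.9 and 30.1 FPKM at 10 Gy. Its libraries were tight, on 2173 to 3616 reads each, and its change of -0.18 ± 0.03 (adjusted p = 0.00493) was -0.06 in TPM (adjusted p = 0.137). ZNF428 had 17.2, 12.1 and 13 FPKM at 0 Gy and 11.2, 12.5 and 11.6 FPKM at 10 Gy, and ZNF865 had 9.95, 8.50 and 9.78 FPKM against 8.67, 8.54 and 7.91 FPKM. The groups overlapped for both, with adjusted p of 0.168 and 0.106.

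**Figure D4:**
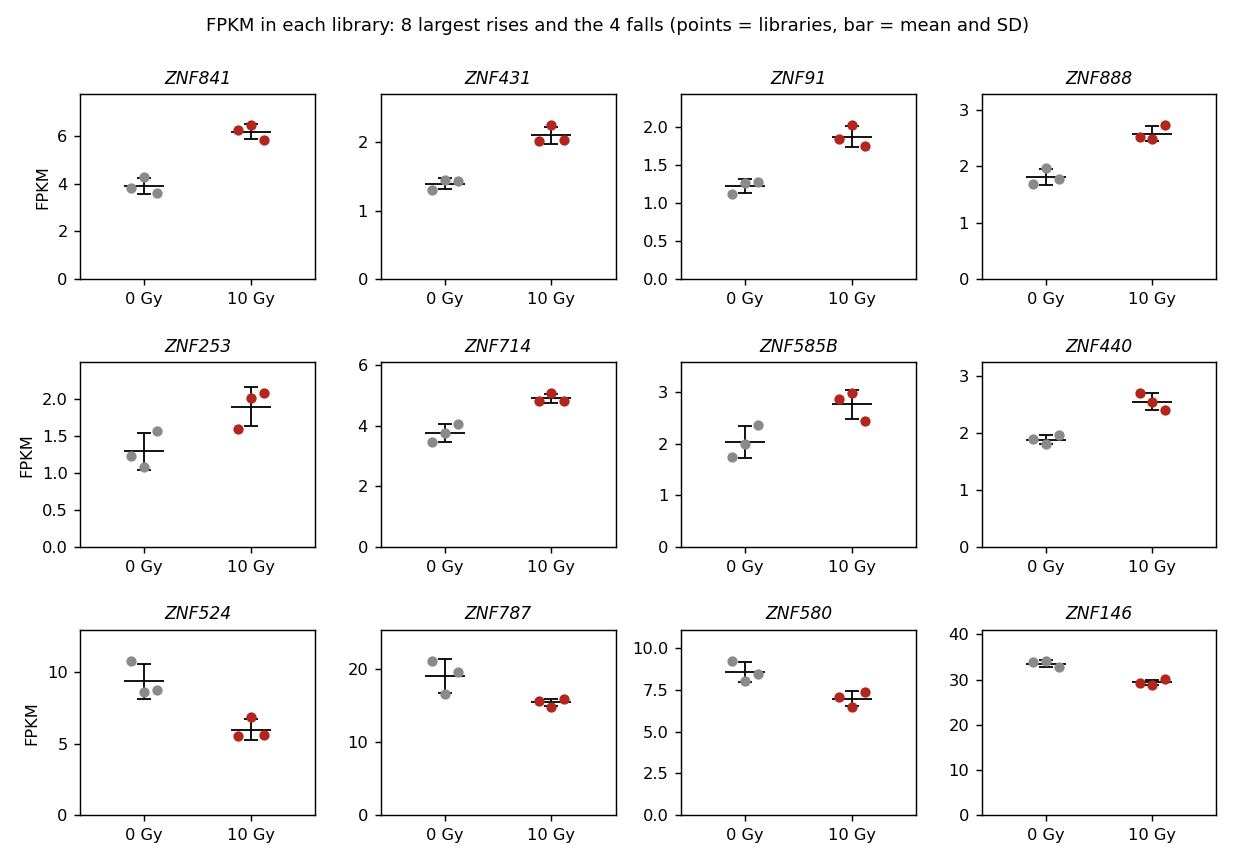
FPKM in each library (points) of the 8 called members with the largest rise and the 4 called lower. Libraries at 0 Gy are grey and those at 10 Gy red, with the mean and SD of 3 libraries. Each axis starts at 0. The doses do not overlap in any panel, and they come closest for ZNF253, ZNF585B and ZNF787.

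Along the chromosome, clusters H and D held the largest numbers of called members. In cluster D, 6 of 21 tested members were higher (28.6%) and 0 lower, where 11.9% and 23.7% of all genes tested were. The median change was 0.14, and all 21 had a positive change, against 41.4% of all genes tested. The summed level of this cluster was 39.0, 39.9 and 39.8 FPKM at 0 Gy and 46.8, 48.8 and 47.8 FPKM at 10 Gy, a ratio of 1.21. In cluster H, 9 of 29 were higher (31.0%) and 0 lower, the median was 0.12, and the sum went from a mean of 61.1 ± 1.10 to 70.3 ± 0.974 FPKM (SD, n = 3). Besides ZNF841, ZNF888 and ZNF432, these 9 are ZNF331, ZNF28, ZNF701, ZNF415, ZNF528 and ZNF761. The sums of clusters D and H did not overlap between doses. Since the clusters were compared after their values were seen, no test of one cluster against another was made.

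Cluster C had 2 higher members of 12 tested (ZNF440 and ZNF791) and a median of 0.17. Cluster E had 2 of 4 (ZNF792 and ZNF302), cluster F 2 of 16 (ZNF585B and ZNF529) beside the fall of ZNF146, and cluster G 2 of 13 (ZNF221 and ZNF224). The shares called higher in clusters C, F and G, at 16.7%, 12.5% and 15.4%, lie near the 11.9% of all genes tested, and cluster E has few tested members. Cluster A with 2 tested members and cluster B with 12 had none called. In cluster I, the one with most members, 2 of 45 were higher (ZNF543 and ZNF772) and 3 lower, and the median was -0.01, which turned to 0.08 in TPM. Its summed FPKM overlapped between the doses, at 168.4 to 180.9 against 167.8 to 170.0 FPKM. The 33 tested members of cluster I with a KRAB match had a median of 0.00 and the 12 without had -0.09, and the latter was 0.02 in TPM. Members with a KRAB match thus had a lower median change in cluster I than over the whole chromosome, where it was 0.10. In the opening run of 9 members without a KRAB match, 7 had a negative change, and ZNF444 had the highest at 0.16 ± 0.07 (adjusted p = 0.122). The names outside the largest changes were given here after their values were seen.

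Of the most abundant members of the 9 clusters, 4 were called, with ZNF791 and ZNF792 higher and ZNF146 and ZNF787 lower. ZNF791 in cluster C had 3.9, 4.23 and 4.13 FPKM at 0 Gy and 4.91, 4.85 and 4.71 FPKM at 10 Gy and rose by 0.19 ± 0.04 (adjusted p = 0.0146). ZNF792 in cluster E had 4.08, 5.27 and 4.30 FPKM against 5.88, 5.58 and 5.60 FPKM and rose by 0.28 ± 0.08 (adjusted p = 0.0333). For both, all irradiated values were above the controls, though for ZNF792 1 control library was close to them. The call of ZNF791 was lost without replicate 1 or 2 of 10 Gy (adjusted p of 0.057 and 0.0519). That of ZNF792 was lost without replicate 1 or 3 of 0 Gy or any replicate of 10 Gy (adjusted p of 0.0725 to 0.1006) and under the replicate block (adjusted p = 0.0519). ZNF792 was also not called with a filter of 0.1 FPKM (adjusted p = 0.0631) or with no filter (adjusted p = 0.114). ZNF77 in cluster A had 2.12, 1.36 and 1.95 FPKM against 2.07, 1.75 and 2.39 FPKM. ZNF317 in cluster B had 8.15, 9.04 and 9.43 FPKM against 9.06, 8.91 and 9.16 FPKM, and ZNF480 in cluster H had 5.06, 5.29 and 5.31 FPKM against 5.29, 5.30 and 5.89 FPKM. These 3 overlapped between doses and were not called, with adjusted p of 0.427, 0.718 and 0.368.

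Members with a well described function were mixed. ZNF331, a KRAB member first known from rearrangements in thyroid adenoma, had 2.53, 2.45 and 2.82 FPKM at 0 Gy and 3.52, 3.46 and 3.22 FPKM at 10 Gy. ZNF224, a KRAB repressor, had 1.10, 1.04 and 1.03 FPKM at 0 Gy and 1.42, 1.3 and 1.59 FPKM at 10 Gy. Both were higher in every irradiated library, by 0.29 ± 0.06 (adjusted p = 0.00986) and 0.25 ± 0.07 (adjusted p = 0.0343). The call of ZNF224 was lost under the replicate block (adjusted p = 0.0742) and without any replicate of 0 Gy or without replicate 1 or 3 of 10 Gy (adjusted p of 0.0543 to 0.111). It was also lost with no filter (adjusted p = 0.116). ZNF274, which recruits SETDB1 to the 3′ ends of zinc finger genes, had 7.0, 5.74 and 6.38 FPKM against 6.50, 6.02 and 6.27 FPKM. ZNF350 (ZBRK1), a repressor that binds BRCA1, had 1.57, 1.36 and 1.26 FPKM against 1.42, 1.64 and 1.66 FPKM. ZNF473, which takes part in histone pre-mRNA processing with the U7 snRNP, had 3.07, 3.60 and 3.45 FPKM against 3.15, 3.33 and 3.14 FPKM. The doses overlapped for all 3, and the adjusted p was 0.844, 0.327 and 0.508. ZNF536, a regulator known from neurons, was listed at 0 in all 6 libraries.

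Change in these libraries moved with the level and the length of genes in general. Of the tested members 85.7% had a mean under 5 FPKM, against 34.2% of tested protein-coding genes, while 50.9% and 51.7% had a length of 5000 bases or more. Among all tested protein-coding genes the median log2 change was 0.05 for genes of 1 to 1.5 FPKM, 0.03 for 1.5 to 2.5, -0.00 for 2.5 to 5, -0.03 for 5 to 10 and -0.10 for 10 FPKM and over. Members with a KRAB match had medians of 0.10, 0.11, 0.04 and 0.04 in the first 4 of these classes, and none was in the last. Their medians were thus above those of protein-coding genes of like level in each of the 4 classes, by 0.04 to 0.08. The share called higher was 7.14% against 11.3% of protein-coding genes at 1 to 1.5 FPKM, and above theirs in the other classes. At 5 to 10 FPKM there were 8 of these members. Members without a match had medians of -0.11 at 2.5 to 5 FPKM (7 genes), -0.03 at 5 to 10 (12) and -0.23 at 10 and over (3). Of these, 0%, 16.7% and 66.7% were called lower, against 11.8%, 22.4% and 41.7% of protein-coding genes. By length, the medians of protein-coding genes were -0.13 under 3000 bases, -0.08 for 3000 to 5000, -0.03 for 5000 to 8000 and 0.02 for 8000 and over. Those of members with a KRAB match were 0.07, 0.06, 0.09 and 0.15. The part of level and length in the calls was not tested.

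**Figure D5:**
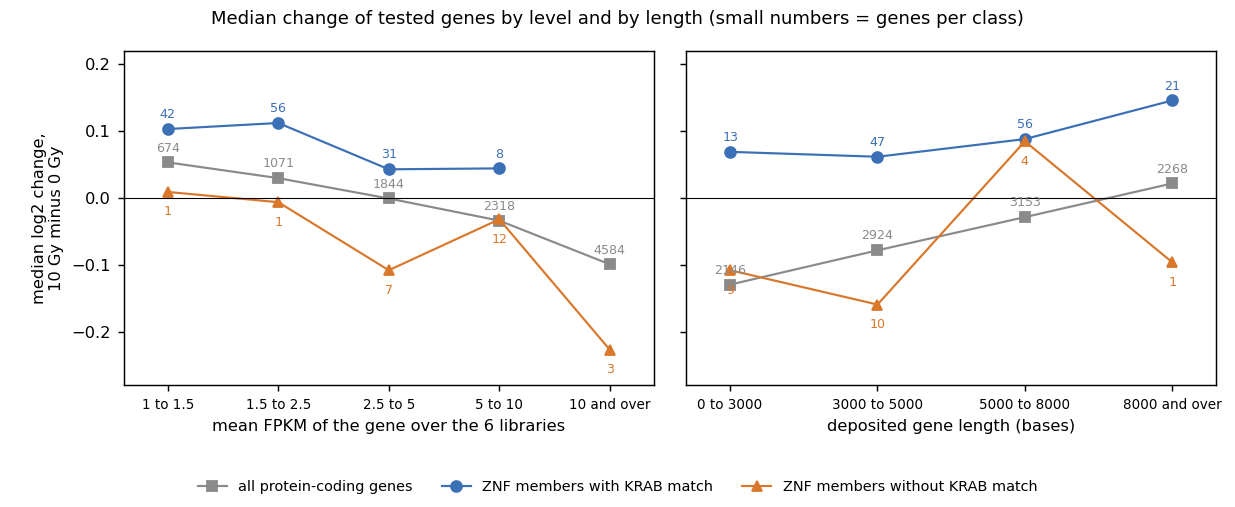
Median log2 change on the log2(FPKM + 1) scale by mean FPKM (left) and by deposited gene length (right) for all tested protein-coding genes (grey squares), members with a KRAB match (blue circles) and members without (orange triangles), with the number of genes at each point. The grey line falls with level and rises with length, and the blue points lie above it in each class that holds them.

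Among members with a KRAB match, more fingers went with a somewhat higher median change, from 0.07 for 6 to 10 fingers (32 tested) to 0.09 for 11 to 15 (65 tested), 0.11 for 16 to 20 (28 tested) and 0.13 for 21 to 36 fingers (8 tested). Called higher were 6 of 32, 10 of 65, 7 of 28 and 2 of 8 in the same order, where 11.9% of all genes were. The share called higher thus did not rise steadily with the number of fingers. The 4 tested members with 5 or fewer fingers had a median of -0.00, and 0 were called higher. Gene length differs between these classes as well, with a median of 7694 bases in the class with most fingers and 4921 bases for 11 to 15, and its part was not tested.

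Counting of such a family is limited by shared sequence. At least 10% of the 100-base stretches of a member's transcripts occur in another gene for 40 of the 249 members, and 140 have exons that overlap another gene, 85 on the same strand and 79 on the opposite strand. Whether the counting used strand is not given in the sources used here. Of the 29 called members, 16 overlap another exon and 1, ZNF585B, shares stretches at that level. The 108 members with neither limit include 81 that were tested, of which 12 were higher (14.8%) and 1 lower (ZNF787, 1.23%). Among all genes tested the shares were 11.9% and 23.7%. The median change of the 81 was 0.05. Among the risers, ZNF91, ZNF714, ZNF440, ZNF331, ZNF791 and ZNF792 are in this set. The called members had between 36 reads, in ZNF221, and 3616 reads, in ZNF146, in a library.

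Other groups were read from the same fit. Of the 265 ZNF genes on other chromosomes, 180 were tested, 11 were higher (6.11%) and 16 lower (8.89%), and the median change was 0.02. Of 1223 other protein-coding genes on chromosome 19, 588 were tested, with a median of -0.05 that was 0.06 in TPM. Among these 588, 82 were higher (13.9%) and 143 lower (24.3%), where 11.9% and 23.7% of all genes were. A share called lower below that of all genes was also seen in the ZNF genes of other chromosomes. The chromosome 19 ZNF genes thus had a higher median than either group. No test of the difference was made, since the members share their family and their neighbourhood and are not independent.

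The partners through which KRAB proteins act changed in both directions. Of 36 genes of the TRIM28, HP1, NuRD, HUSH, H3K9 methylation and DNA methylation machinery, 34 were tested, 7 were higher (20.6%) and 12 lower (35.3%), where 11.9% and 23.7% of all genes were. With 1 library left out 4 or 5 were higher, and in TPM 10 were higher and 2 lower. Over the 12128 genes tested, 3127 were higher in TPM and 1071 lower. TRIM28, itself on chromosome 19 (58544091 to 58550722), had 195.2, 189.8 and 185.6 FPKM at 0 Gy and 170.9, 168.7 and 172.7 FPKM at 10 Gy. All irradiated values were lower, and the change was -0.15 ± 0.03 (adjusted p = 0.0118), which was -0.03 in TPM. The call was lost without replicate 1 or 2 of 10 Gy (adjusted p of 0.0526 and 0.0569). SETDB1 had 2.80, 3.31 and 2.84 FPKM against 2.79, 2.88 and 3.18 FPKM and was not called (adjusted p = 0.927). Its cofactor ATF7IP had 7.41, 8.44 and 8.43 FPKM at 0 Gy and 11.3, 11.6 and 10.5 FPKM at 10 Gy, a change of 0.42 ± 0.06 (adjusted p = 0.00268). The HP1 gene CBX5 had 9.08, 9.89 and 10.3 FPKM at 0 Gy and 14, 14.1 and 13.2 FPKM at 10 Gy, a change of 0.46 ± 0.05 (adjusted p = 0.00113). These were the largest rises of the list, and for both all irradiated values were above the controls.

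ATRX, a chromatin remodeller of heterochromatin, rose by 0.29 ± 0.05 (adjusted p = 0.00676). PPHLN1 of the HUSH complex, the NuRD ATPases CHD4 and CHD3 and the deacetylase HDAC1 rose by 0.10 to 0.17. The calls of CHD4 and CHD3 were lost with any 1 of the 6 libraries left out (adjusted p of 0.0747 to 0.128 for CHD4 and 0.0522 to 0.133 for CHD3), and that of HDAC1 with any but replicate 1 of 0 Gy left out (adjusted p of 0.0908 to 0.143). Under the replicate block CHD3, CHD4 and HDAC1 were not called (adjusted p of 0.0761, 0.0963 and 0.103), nor with a filter of 0.1 FPKM (adjusted p of 0.0557, 0.0551 and 0.0625). CHD3 and HDAC1 were also not called without the eBayes trend (adjusted p of 0.0678 and 0.0791). The falls were led by the NuRD subunit MBD3, with 25.1, 23.3 and 24.3 FPKM at 0 Gy and 18.7, 19.7 and 19 FPKM at 10 Gy (-0.33 ± 0.04, adjusted p = 0.00139). The H3K9 methyltransferase gene SUV39H1 fell by 0.28 and the DNA methylation cofactor UHRF1 by 0.27. HDAC2, MTA2, CBX3, SUV39H2, MBD2, RBBP7, TRIM28 and RBBP4 followed with changes of -0.22 to -0.13. DNMT1, the maintenance DNA methyltransferase, had the smallest fall, -0.10 ± 0.03 (adjusted p = 0.0303), which turned to 0.02 in TPM. The call of DNMT1 was lost without any library but replicate 1 of 0 Gy (adjusted p of 0.0542 to 0.111), that of RBBP4 without any but replicate 3 of 0 Gy (adjusted p of 0.0591 to 0.12), and that of MBD2 without replicate 3 of 0 Gy or any replicate of 10 Gy (adjusted p of 0.0528 to 0.0599). Under the replicate block DNMT1 and RBBP4 were not called (adjusted p of 0.078 and 0.0839). RBBP4 was also not called with a filter of 0.1 FPKM (adjusted p = 0.0535), nor DNMT1 without the eBayes trend (adjusted p = 0.0609).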

How the data were processed

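Per the labels, polyA RNA of MDA-MB-231 cells was sequenced, and the submitters' processing notes name HISAT2 and GRCh38. The authors deposited FPKM values for each gene and library. The counting program and its strand setting are not given in the sources used here. Multiplying FPKM by gene length and implied depth gave whole reads (within 0.1) for 100% of values above 0, and these reads served only as a measure of depth.

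limma 3.58.1 (R 4.3.3) was fitted to log2(FPKM + 1) for all genes averaging 1 FPKM or more, eBayes used an intensity trend, and p-values were adjusted by Benjamini-Hochberg. The members and gene lists were chosen with earlier results of these data known. KRAB matches were found with a profile built from member proteins (pyhmmer 0.12.3, E-value of at most 0.001), fingers by the spacing of cysteines and histidines, and shared sequence by 100-base stretches. Promoters were aligned globally with Biopython 1.88. Named were the members with the 8 largest rises and 8 largest falls (4 existed) among calls without overlap, the 5 most abundant, the most abundant of each cluster, those with known roles, and TRIM28, SETDB1 and called partners. Alternatives covered pseudocount, filter, scaling, replicate block, trend, gene set and left-out libraries. The procedure was tested on simulated data. It called 99 of 100 genes changed 2-fold, 51 of 100 changed 1.3-fold and 12 of 11928 unchanged genes. A member that was not called can therefore not be read as unchanged. Figures used Python 3.11.15 and matplotlib 3.10.9.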

Additional observations from a re-analysis of the deposited data

How the results depend on the processing

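Of the choices tried, scaling moved the balance of calls most. In TPM the called genes were 3127 higher and 1071 lower over all genes (1443 and 2874 as deposited), and 51 and 1 over the members. The other results in TPM were 47 higher with a KRAB match, 4 higher and 1 lower without, 43 and 4 for ZNF genes of other chromosomes, 184 and 63 for other genes of chromosome 19, and 2 partners lower. The median change of members was 0.16, or 0.094 above all genes, and DNMT1 reversed to 0.025. Upper-quartile and median-of-ratios scaling changed no call of the named genes. With no filter, 1815 genes were lower, members were 9 higher and 2 lower (9 with a KRAB match, 2 without), other ZNF genes 5 and 8, partners 4 higher, and the median 0.064, or 0.051 above all genes. A filter of 0.1 FPKM gave 4 partners higher and a difference of 0.062. A pseudocount of 0.1 gave a median of 0.11 and a difference of 0.16, and with the filter of 0.1, added after seeing the data, a median of 0.14. Protein-coding genes alone gave 38 members higher (38 with a KRAB match) and 7 lower, 1 with a KRAB match lower, and 26 other ZNF genes higher. Without the eBayes trend, 18 other ZNF genes were higher and 1 member with a KRAB match lower. Requiring a 1.3-fold change left 1 member higher and 1 lower, and members without shared or overlapping sequence counted 12 and 1. With a KRAB E-value limit of 0.0001, also added later, 1 member without a match was higher.

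Replicate numbers did not pair the libraries, with correlations of -0.0405, -0.0349 and -0.101 between same-numbered ones. With the replicate number as a block, 14 members were higher (14 with a KRAB match) and 4 partners were higher. With each library left out in turn, 852 to 1393 genes were higher and 1808 to 2630 lower. Members were 9 to 16 higher and 2 to 6 lower, those with a KRAB match 9 to 15 higher, and those without 0 to 2 higher and 2 to 6 lower. The ranges were 5 to 11 and 8 to 17 for other ZNF genes, 49 to 102 and 95 to 177 for other genes of chromosome 19, and 4 to 5 partners higher. The median of members was 0.063 to 0.084, and 0.098 to 0.12 above all genes. The cause of these moves was not tested.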
